A study of Mus musculus with 27 samples.

Results

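The comparison described here places 3 kinds of mouse thyroid tissue in 1 order and asks, gene by gene, whether expression moved in that order. All 27 of the 27 libraries of the series entered it. NCT was normal thyroid of mice that had not been irradiated (9 mice, coded 0). NT was normal thyroid from irradiated mice, lying beside abnormal tissue (9 mice, coded 1). PL was a proliferative lesion from the thyroid of the same 9 irradiated mice (coded 2), so each PL library has an NT library of its own mouse, whereas the NCT mice are different animals. Each group held 6 females and 3 males, and the 27 libraries came from 18 mice. All tissue was cut out by laser-capture microdissection, and the RNA was sequenced with QuantSeq, a method that reads the 3′ end of each transcript. The labels name no strain, age, radiation dose or time from exposure. Each irradiated mouse analysed here had a lesion, so exposure and the presence of a neighbouring lesion cannot be told apart in NT. The code is an order of tissue states and not of time.

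The thyroid follicle is a sphere of epithelial cells around a store of thyroglobulin. Follicular cells take up iodide, couple it to thyroglobulin at the apical surface, retrieve the protein, and digest it in lysosomes to release hormone, all under the control of thyrotropin. Between the follicles lie C cells, which make calcitonin, with vessels and connective tissue. The gland itself sits against the trachea, the parathyroids, muscle and brown and white fat. Follicular epithelium exposed to radiation is a known site of hyperplasia, adenoma and carcinoma. Because bulk tissue was measured, fewer cells of a type and less RNA per cell cannot be told apart in any result below.

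The trend of a gene is given as its slope, the log2 change per step of the code (NCT to NT to PL), with its standard error (SE), from edgeR's quasi-likelihood test with Benjamini-Hochberg adjustment over 15233 tested genes. Levels are in CPM, the counts of a library scaled to a common total after normalization factors were applied. The place of NT is the fraction of the log2 distance from NCT to PL that NT has covered: 0 puts NT at the NCT level and 1 at the PL level. A gene was called ordered when its slope passed an adjusted p of 0.05 and the fitted levels lay in the order NCT, NT, PL or its reverse. With 9 libraries in each group, the slope is close to the PL minus NCT difference divided by 2. The median gap between these values among the ordered genes was 0.000738. The slope alone therefore says little about NT, and the place of NT carries that information.

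Total counts per library ranged from 2923851 to 14148601, and the group medians were 4622595 (NCT), 7220957 (NT) and 6479022 (PL). Tg, the gene of thyroglobulin and the defining marker of the tissue, stood between 9736 and 60592 CPM in every library. Mitochondrial transcripts took 12.8% (NCT), 10.5% (NT) and 9.93% (PL) of the counts at the median. Some libraries stood apart. NCT replicates 5, 8 and 9, NT replicates 7 and 9 and PL replicate 2 held over 2000 CPM of Pth (parathyroid hormone) or Lipf (a gastric lipase). NT replicates 7, 8 and 9 held over 5000 CPM of Bpifa1, a secreted protein of the airway lining. Single-gene values without NT replicates 7, 8 and 9, or without NCT replicate 9, are given for some of the genes below. For the libraries rich in Pth or Lipf only counts are given. Without them, 24 of 86 named genes called by slope and 8 of 25 called by PL against NT lost the call. The mouse numbers fell into 3 series, 1 of them with 4, 1 and 1 libraries of NCT, NT and PL, another with 1, 4 and 4 and the last with 4 of each, so number series and exposure overlap in part.

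The trend was called for 1740 genes (11.4% of those tested), and 1559 of them (10.2%) were ordered. Of the ordered genes 904 rose (5.93% of all tested genes) and 655 fell (4.30%). The median ordered gene differed 1.84-fold between NCT and PL, and 678 ordered genes differed at least 2-fold. NT lay nearer to NCT than to PL for the typical ordered gene: the median place was 0.367, with quartiles of 0.233 and 0.552. It was 0.358 among the rises and 0.377 among the falls. The median place was 0.438 without the NT libraries rich in Bpifa1 and 0.407 without the libraries rich in Pth or Lipf. It was 0.303 with a score of adipocyte markers as a covariate, and 0.332 to 0.396 when 1 mouse was left out. The order rule itself confines the place to between 0 and 1. It leaves out 181 genes whose trend was called with NT outside the range of NCT and PL. The median place and the midway share below hold for the genes so selected. The place lay between 0.25 and 0.75 (called midway here) in 1002 genes (6.58% of those tested), or 64.3% of the ordered genes: 610 rises (4.0%) and 392 falls (2.57%). In 432 ordered genes (2.84%) the place was below 0.25, near NCT, with 246 rises (1.61%) and 186 falls (1.22%). In 125 (0.821%) it was above 0.75, near PL, with 48 rises (0.315%) and 77 falls (0.505%).

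**Figure D1:**
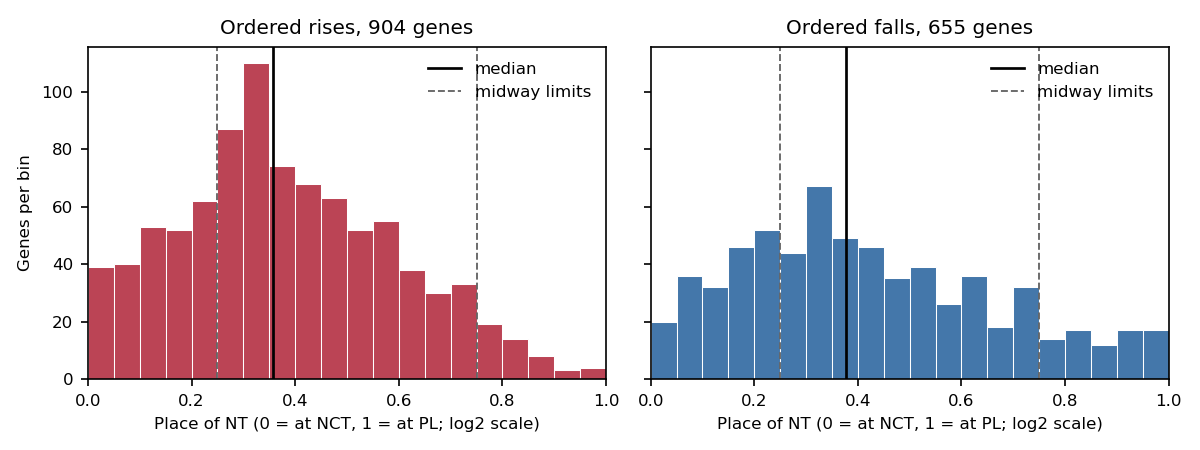
Number of ordered genes (vertical axis) by the place of NT on the log2 scale (horizontal axis, 0 at the NCT level and 1 at the PL level), for 904 rises and 655 falls. Dashed lines mark the midway limits at 0.25 and 0.75, and the solid lines mark the medians, 0.358 for rises and 0.377 for falls; 77 falls and 48 rises lie above 0.75.

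These places are estimates from 9 libraries a group and are not sharp for single genes. The departure of NT from the midpoint of NCT and PL, tested as a contrast of its own, passed the adjusted threshold for 0 of 15233 genes (0%) in edgeR, whose lowest adjusted p was 0.116. At an unadjusted p under 0.05 it held for 1389 genes, and the DESeq2 Wald test called 48. No gene had both steps called in 1 direction in edgeR (0 genes, against 157 with both steps at an unadjusted p under 0.05 and 4 by the DESeq2 Wald test). The step from NCT to NT was called for 5 genes (0.0328%), 2 higher in NT (0.0131%) and 3 lower (0.0197%). That count was 87 by the DESeq2 Wald test, 14 without NCT replicate 7, 14 with the mouse number series as a covariate, and 2 to 8 when any other mouse was left out. It was 0 with log2 library size or a score of adipocyte markers as a covariate. With fewer samples it was also 0: in females alone, in the number series with 4 mice of each kind, and without the libraries rich in Pth or Lipf. The step from NT to PL was called for 779 (5.11%), 422 higher in PL (2.77%) and 357 lower (2.34%). It was 320, 405, 486 and 515 genes without exposed mouse 3, 8, 7 and 9, 239 without the libraries rich in Bpifa1, and 1260 with the mouse as a random block in limma-voom, against 830 there without the block. It was 72 in females alone, 34 in the number series with 4 mice of each kind and 285 without the libraries rich in Pth or Lipf. PL against NCT was called for 1817 genes (11.9%), 996 higher (6.54%) and 821 lower (5.39%). NT and PL come from the same mice and NCT from others, but these edgeR fits hold no mouse term, and the counts do not measure the size of the steps. Groups that did not overlap in any library were found for NCT and PL in 151 genes (0.991%), for NT and PL in 21 (0.138%), for NCT and NT in 9 (0.0591%), and for all 3 groups in order in 0 genes.

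Among the rises with the smallest p-values, Atp11a encodes a flippase that moves phospholipids to the inner leaflet of the plasma membrane (chr8:12757014-12868728 on GRCm38). Its level in NCT was 135 CPM at the lowest, 150 at the median and 244 at the highest. In NT the values were 138, 270 and 392 CPM, and in PL 392, 514 and 654 CPM. NCT and PL did not overlap, NT spanned most of the gap between them, and PL was above NT in 8 of 9 mice. The slope was 0.79 (SE 0.08, adjusted p = 1.09e-07), the place of NT was 0.441, and PL exceeded NCT 3.00-fold.

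Ston2 encodes stonin 2, an adaptor for sorting vesicle proteins into clathrin-coated pits (chr12:91633009-91788387). It stood at 14.2 ± 4.12 CPM in NCT mice, 22.7 ± 8.27 in NT and 49.6 ± 13.1 in PL (mean ± SD, n = 9 each). Its slope was 0.90 (SE 0.10, adjusted p = 1.68e-06) with NT at 0.374 of the way, and PL lay above NT in 9 of 9 mice. Lsr, a receptor for lipoproteins that also builds tricellular junctions, rose from 119 ± 20.7 CPM through 157 ± 33.4 to 274 ± 93.8, with a slope of 0.60 (SE 0.08, adjusted p = 1.31e-05). Each of these genes showed PL libraries entirely above the NCT libraries, with NT overlapping both.

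Khk, the ketohexokinase that starts fructose breakdown, rose from 16.4 CPM in NCT and 23.3 in NT to 64.3 in PL, a slope of 0.99 (SE 0.12, adjusted p = 1.29e-05). Its place of NT, 0.253, is just inside the midway limit. H6pd, which supplies NADPH inside the endoplasmic reticulum and was chosen after its values were seen, had means of 57.1, 80.2 and 162 CPM in the 3 groups, with NT at 0.325. Hs3st3a1 adds sulfate groups to heparan sulfate chains. Its means were 2.88, 7.49 and 21.02 CPM, the slope was 1.44 (SE 0.19, adjusted p = 1.29e-05), and NT lay at 0.479.

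Sox17, a transcription factor of endoderm and of arterial endothelium, rose from 8.48 ± 2.06 CPM in NCT to 14.6 ± 6.10 in NT and 65.0 ± 47.4 in PL. The PL libraries spread from 17.2 to 152 CPM while the highest NCT library held 13.4, and PL exceeded NT in 9 of 9 mice. The slope was 1.49 (SE 0.18, adjusted p = 1.09e-05) and NT stood at 0.268. Hmga2, a chromatin protein of embryonic and tumour cells, had a lowest, median and highest value of 2.79, 8.90 and 12.9 CPM in NCT mice, 5.06, 10.1 and 33.7 in NT, and 24.2, 32.3 and 74.1 in PL. No PL library overlapped NCT, 9 of 9 mice had more in PL than in NT, and the slope was 1.20 (SE 0.17, adjusted p = 4.85e-05) with NT at 0.402.

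The largest midway rises by size were lowly expressed in NCT and variable among lesions. Col25a1, a membrane collagen, rose from 1.97 through 4.35 to 38.1 CPM (slope 2.21, SE 0.33, adjusted p = 7.59e-05). Hs3st4, another heparan sulfate sulfotransferase, rose from 2.44 through 5.56 to 44.8 CPM (slope 2.18, SE 0.35, adjusted p = 0.000241). Slc34a2, a sodium-phosphate cotransporter of lung and tumour epithelium, stood at 11.1, 22.3 and 148 CPM, and Sprr1a, a squamous envelope protein, at 8.41, 17.5 and 118 CPM. In each of these 4 genes NT covered between 0.259 and 0.288 of the distance, the low edge of the midway range.

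Lcn2, a secreted iron-trafficking protein of inflamed epithelium, had the largest slope of the midway rises described, 2.30 (SE 0.49, adjusted p = 0.00299). PL ranged from 0.495 to 453 CPM around a median of 15.4, and PL exceeded NT in 5 of 9 mice. In limma-voom with the mouse as a random block, the random-block fit used below, the adjusted p was 0.184. Of the calls of named genes that this fit lost, 12 of 14 by slope and 8 of 8 by PL against NT were also lost in limma-voom without the block. Sftpd, a surfactant collectin, likewise had a PL median of 14.8 CPM and a highest value of 296, with PL above NT in 6 of 9 mice and an adjusted p of 0.061 in the random-block fit, and its call was lost without exposed mouse 7.

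**Figure D2:**
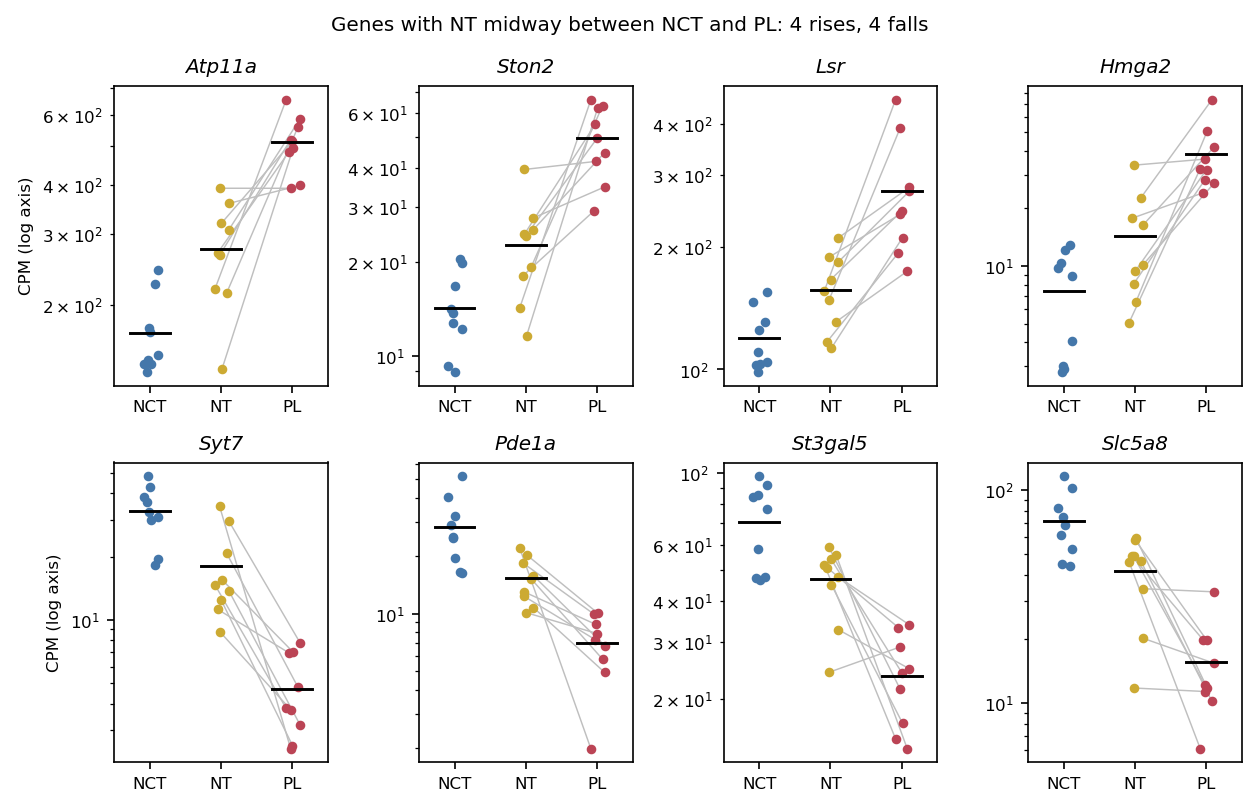
CPM on log axes in each of the 27 libraries for 4 rises (Atp11a, Ston2, Lsr, Hmga2) and 4 falls (Syt7, Pde1a, St3gal5, Slc5a8) with NT midway. Points are libraries (9 per group), black bars are group means and grey lines join NT and PL of 1 mouse; NCT and PL do not overlap in any of the 8 panels, and NT overlaps at least 1 of them in each.

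One block of the rises cannot be counted gene by gene. In chr14:3049285-7643972, 36 of 37 tested genes were ordered rises, 34 with placeholder (Gm) names, in a segment made of many near-identical gene copies. Reads from such copies can be split or shared between them, and the labels do not say how the counting treated them. Their summed level was 49.6 ± 19.6 CPM in NCT mice, 107 ± 101 in NT and 633 ± 716 in PL (n = 9 each), and the PL libraries ran from 37.1 to 2396 CPM. Taken as 1 feature the segment thus overlaps between groups. Outside it 868 ordered rises remained, 586 of them midway.

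Among the falls with the smallest p-values, Syt7, a calcium sensor for exocytosis and membrane repair (chr19:10389090-10453180), showed the clearest separation. Its lowest, median and highest values were 18.2, 32.6 and 48.3 CPM in NCT mice, 8.79, 14.7 and 34.8 in NT, and 2.44, 3.79 and 7.80 in PL. Every PL library lay below every NT and every NCT library. The slope was -1.39 (SE 0.15, adjusted p = 1.47e-06), NT lay at 0.314, and PL was 6.99-fold lower than NCT. Within NT, Syt7 and the calcitonin gene Calca were both highest in replicates 8 and 4 and both lowest in replicates 5 and 6. The share of the Syt7 fall that goes with C cells cannot be told apart from the group difference.

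Pde1a, a calmodulin-dependent phosphodiesterase, had 28.4 ± 11.8 CPM in NCT mice, 15.3 ± 4.20 in NT and 7.06 ± 2.58 in PL (n = 9 each). NT and PL did not overlap, and the slope was -0.996 (SE 0.12, adjusted p = 9.87e-06) with NT at 0.445. St3gal5, which makes the ganglioside GM3, went from 70.6 through 46.8 to 23.5 CPM, a slope of -0.79 (SE 0.10, adjusted p = 1.09e-05), NT at 0.375. Tril, an accessory of Toll-like receptor 4, had a slope of -0.91 and NT at 0.268. Its NCT and PL libraries did not overlap.

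Thyroid genes moved in both directions. Of the 24 tested genes of follicular differentiation, 5 were ordered rises (20.8%) and 4 ordered falls (16.7%), beside 5.93% and 4.30% of all genes. The median slope of the list was 0.11, against 0.01 over all tested genes. Slc5a8, an apical monocarboxylate transporter, fell from 71.9 CPM in NCT through 41.6 in NT to 15.5 in PL, lower in 9 of 9 mice (slope -1.10, SE 0.15, adjusted p = 2.5e-05, NT at 0.357). Slc26a7, an iodide transporter, fell from 707 through 534 to 396 CPM (slope -0.42, adjusted p = 0.00821, NT at 0.485). Tg fell from 39648 ± 11060 CPM through 26984 ± 7781 to 23422 ± 8079 (slope -0.38, SE 0.10, adjusted p = 0.014), and its NT, at 0.731, had covered most of the distance. Pde8b, a cyclic AMP phosphodiesterase, fell with a slope of -0.81 and NT at 0.322.

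Among the rises, Tshr, the thyrotropin receptor, had NT nearer to NCT: NCT and NT had 67.9 ± 26.5 and 84.8 ± 46.4 CPM, PL had 204 ± 76.1, and the place was 0.201. Its NT libraries ran from 25.4 to 152.5 CPM and its PL libraries from 130.4 to 365.1 CPM, so NT and PL overlapped. Glis3, a transcription factor needed for the response to thyrotropin, and Duoxa2, the maturation factor of the enzyme that makes hydrogen peroxide for hormone synthesis, had places of 0.061 and 0.022, and the call of Duoxa2 was kept in 16 of 18 fits that left out 1 NCT mouse or 1 exposed mouse. Its adjusted p for PL against NT was 0.0494, and 0.278 with the mouse as a fixed block. Hhex, a thyroid transcription factor, was also an ordered rise (slope 0.33, place 0.030). Its call was kept in 8 of those 18 fits, and its adjusted p was 0.060 in the random-block fit. Slc5a5, the sodium-iodide symporter, had means of 103, 98.5 and 141 CPM and an adjusted p of 0.613.

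C cell genes had the lowest median slope of the gene lists, -1.41. Of 16 markers 10 were ordered falls (62.5%, beside 4.30% of all genes), 7 of them midway. Scg2, a granin of secretory granules, had a lowest, median and highest value of 63.0, 291 and 722 CPM in NCT mice, 20.5, 76.7 and 336 in NT and 1.52, 5.32 and 39.9 in PL. NCT and PL did not overlap, PL was lower in 9 of 9 mice, and the slope was -2.48 (SE 0.36, adjusted p = 7.59e-05) with NT at 0.315. Chgb, another granin, had a slope of -2.28 (SE 0.33, adjusted p = 5.83e-05) and NT at 0.331. Scg3, which retains granins in granules, had a slope of -2.13 (SE 0.27, adjusted p = 1.43e-05) and NT at 0.302.

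Calca, the calcitonin gene itself, stood at 3660 ± 2096 CPM in NCT mice, 1885 ± 1604 in NT and 85.7 ± 99.3 in PL. Its NT covered 0.177 of the log2 distance, so by the rule it belonged with the genes that changed only in PL. Its NT mean was nevertheless below its NCT mean. The same held for Pcsk2, the convertase of secretory granules, with 94.9, 37.8 and 1.73 CPM and NT at 0.227. Scg5 and Calcb, in the same marker list, were ordered rises. Scg5, a chaperone of that convertase, rose from 237 ± 97.4 CPM through 344 ± 191 to 884 ± 408 (slope 0.95, adjusted p = 0.000303). Calcb rose from 1.17 to 19.2 CPM with its call kept in 7 of 18 fits with 1 mouse left out. Cited1, a transcriptional co-regulator among the papillary carcinoma markers, fell with a slope of -2.31 (adjusted p = 1.31e-05), from 7.52 ± 2.84 CPM through 2.24 ± 1.66 to 0.262 ± 0.287.

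The C cell score (the mean log2 CPM of the markers) was 4.99 ± 0.61 in NCT, 4.14 ± 0.74 in NT and 2.34 ± 0.64 in PL. The order code took 72.6% of its variance. With the score as a covariate edgeR left 0 ordered genes, 0 midway genes and 0 genes changed only in PL, with 972 genes at an unadjusted p under 0.05 for the slope. The median SE of the slope among the ordered genes grew from 0.109 to 0.206. C cell content and the order of the groups cannot be told apart in these libraries.

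**Figure D3:**
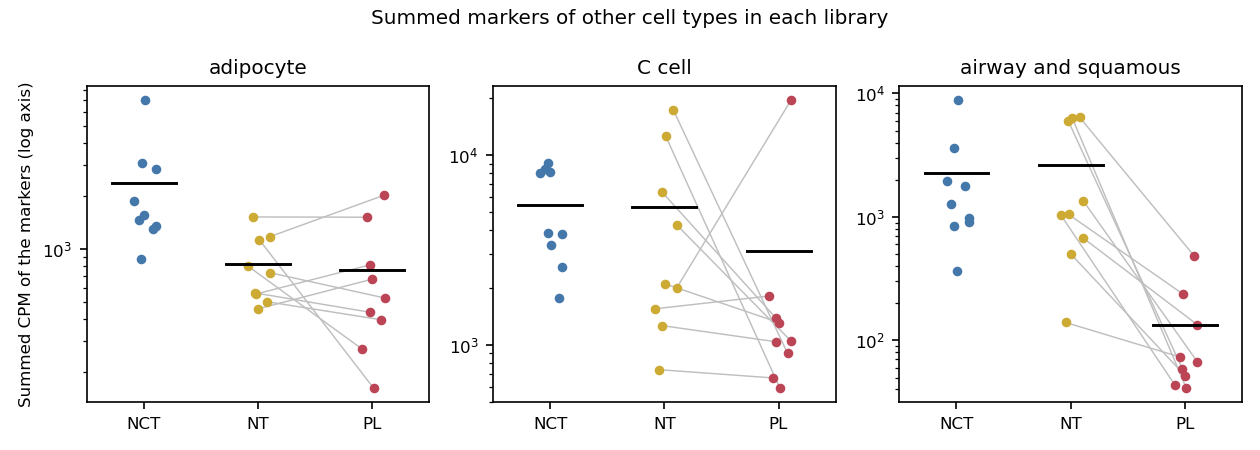
Summed CPM (log axes) of adipocyte, C cell and airway and squamous markers in each library, with points, bars and lines as in the plot of midway genes. Median adipocyte sums drop at the first step (1565, 730 and 525 CPM), and median airway sums drop at the second (1273, 1046 and 67.2 CPM); C cell sums include Chga, which parathyroid cells also express.

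Genes of the second step were counted by size: PL against NT and PL against NCT were both called in 1 direction, and NT lay within 0.25 of the NCT to PL distance from NCT. By this rule 435 genes (2.86%) changed only in PL, 233 upward (1.53%) and 202 downward (1.33%), and 261 of them (1.71%) were also ordered. With the mouse as a fixed block in the NT to PL step the count was 249. It was 110 without NT replicates 7, 8 and 9, 152 without the libraries rich in Pth or Lipf, and 188, 280, 247 and 284 when exposed mouse 3, 7, 8 or 9 was left out, so several single mice moved it over 1.5 times. At the limit, Khk with a place of 0.253 counted as midway and Ptgs1 with 0.246 as changed only in PL. The limit is a share of the log2 distance. Where the PL change is large, as for Calca and Pcsk2, NT can therefore also differ from NCT in a gene of this class.

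Fndc3a, a fibronectin type III protein, had the smallest p of the NT to PL step among the genes described and was chosen after its values were seen (chr14:72537946-72710003). It had a lowest, median and highest value of 54.6, 60.7 and 81.0 CPM in NCT mice, 45.2, 59.9 and 104 in NT, and 111, 164 and 271 in PL. NCT and NT shared 1 range and every PL library lay above both. PL exceeded NT by 1.43 log2 (SE 0.16, adjusted p = 4.26e-06), or 2.69-fold, and the adjusted p was 0.00138 with the mouse as a fixed block.

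Gtf2a1, a subunit of the general transcription factor TFIIA, had 47.4 ± 16.5 CPM in NCT mice, 60.1 ± 17.1 in NT and 152 ± 45.5 in PL. All PL libraries were above all others, and PL exceeded NT by 1.34 log2 (SE 0.20, adjusted p = 0.000189). Ptgs1, cyclooxygenase 1, stood at 29.3, 46.5 and 192 CPM, with PL 4.12-fold over NT (adjusted p = 0.000505). Epha7, a receptor for ephrins, had means of 19.8, 15.9 and 51.5 CPM (1.69 log2 over NT, SE 0.23, adjusted p = 0.000171). In Epha7 the NT mean lay slightly below NCT, and no NT library reached a PL library. NCT and PL overlapped, with a highest NCT value of 31.1 CPM and a lowest PL value of 23.2.

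Further genes chosen after their values were seen also had NT near NCT. In each of them, however, PL overlapped NCT, NT or both. Nkx2-2, a transcription factor of neural tube and endocrine pancreas, had means of 7.01, 5.26 and 22.8 CPM (adjusted p = 0.000189 for PL against NT). Oxr1, which protects against oxidative damage, had 92.1, 87.7 and 155 CPM. Its NT and PL did not overlap, but its highest NCT library (122 CPM) exceeded its lowest PL library (114 CPM). Ank, an exporter of pyrophosphate and citrate, had 101, 127 and 379 CPM. Mesd, the chaperone of lipoprotein receptor family members, had 51.9, 61.7 and 119 CPM. In each of these 4 genes PL exceeded NT in 9 of 9 mice.

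By size, the leading rises that changed only in PL were near the limit of detection in NCT and NT. Cck, the gut and brain peptide cholecystokinin, had a median of 2.73 CPM in NCT mice, 4.30 in NT and 50.4 in PL. The PL libraries ran from 2.44 to 299 CPM, so 3 of them, from mice 5, 7 and 9, lay within the NCT range, whose highest value was 17.4. Within mice, PL was above NT in 9 of 9 (3.98 log2, SE 0.89, adjusted p = 0.0097). Muc4, a membrane mucin, rose from 1.69 and 3.03 to 28.7 CPM (3.26 log2 over NT, adjusted p = 0.0017). Elobl, Fgg (fibrinogen gamma), Coch (cochlin) and Atp2b2 (a plasma membrane calcium pump) rose by 2.96 to 4.98 log2 over NT. For Fgg and Coch the adjusted p was 0.111 and 0.145 with the mouse as a fixed block. In the random-block fit it was 0.0942 for Cck, 0.0904 for Elobl, 0.188 for Fgg, 0.42 for Coch and 0.216 for Atp2b2. Without exposed mouse 3 the calls of Coch and Atp2b2 were lost, and without mouse 8 that of Coch. Without NT replicates 7, 8 and 9 the adjusted p was 0.0851 for Cck, 0.12 for Coch, 0.0714 for Fgg and 0.0651 for Atp2b2.

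Of the 6 falls named for their size from NT to PL among the genes that changed only in PL, 4 were airway genes; the others were Pcsk2 and Resp18. Bpifa1 had a lowest, median and highest value of 285, 1093 and 4557 CPM in NCT mice, 58.2, 932 and 5896 in NT, and 16.7, 30.3 and 415 in PL. PL was lower than NT in 9 of 9 mice, with a log2 difference of -4.67 (SE 0.89, adjusted p = 0.00336). Sec14l3, Cyp2a5 and Scgb3a2, all genes of airway epithelium, had log2 differences between PL and NT of -4.64, -4.85 and -4.71. Without NT replicates 7, 8 and 9 the differences were -2.87 log2 for Bpifa1 (adjusted p = 0.0594), -2.67 for Sec14l3 (0.0743), -1.77 for Cyp2a5 (0.287) and -2.64 for Scgb3a2 (0.0731). In the random-block fit the adjusted p-values were 0.111 for Sec14l3, 0.218 for Cyp2a5 and 0.0837 for Scgb3a2. Tppp3, a microtubule protein of ciliated cells, had 36.1, 38.7 and 14.8 CPM in the 3 groups.

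Of the 14 tested airway and squamous markers, 5 fell only in PL, beside 1.33% of all genes. Ordered falls were 3 (21.4%, beside 4.30% of all genes). Their summed level ran from 362 to 8779 CPM in NCT, 140 to 6388 in NT and 41.1 to 486 in PL. Of the 16 listed, 1 marker, Sprr3, was at 0 in every NCT and PL library. Such markers belong to tissue outside the follicle, and their part in the falls was not tested. Resp18, a neuroendocrine granule protein, also fell only in PL by the rule, with a lower mean in NT than in NCT (19.5, 11.7 and 0.536 CPM).

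Of the 6 largest midway falls, 4 rested on 1 library. Scgb3a1 (an airway secretion), Reg3g (an antimicrobial lectin), Dmbt1 (a mucosal scavenger receptor) and Ltf (lactoferrin) had slopes of -2.58 to -3.10 over all libraries. NCT replicate 9 held 2616 CPM of Scgb3a1 and 4030 of Dmbt1, while the next highest NCT libraries held 41.8 and 51.04. Without that library the adjusted p-values were 0.209 for Scgb3a1, 0.341 for Dmbt1, 0.434 for Reg3g and 0.492 for Ltf. The slopes then lay between -0.63 and -1.06. In the random-block fit these 4 calls were lost as well, with adjusted p-values between 0.174 and 0.582.

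**Figure D4:**
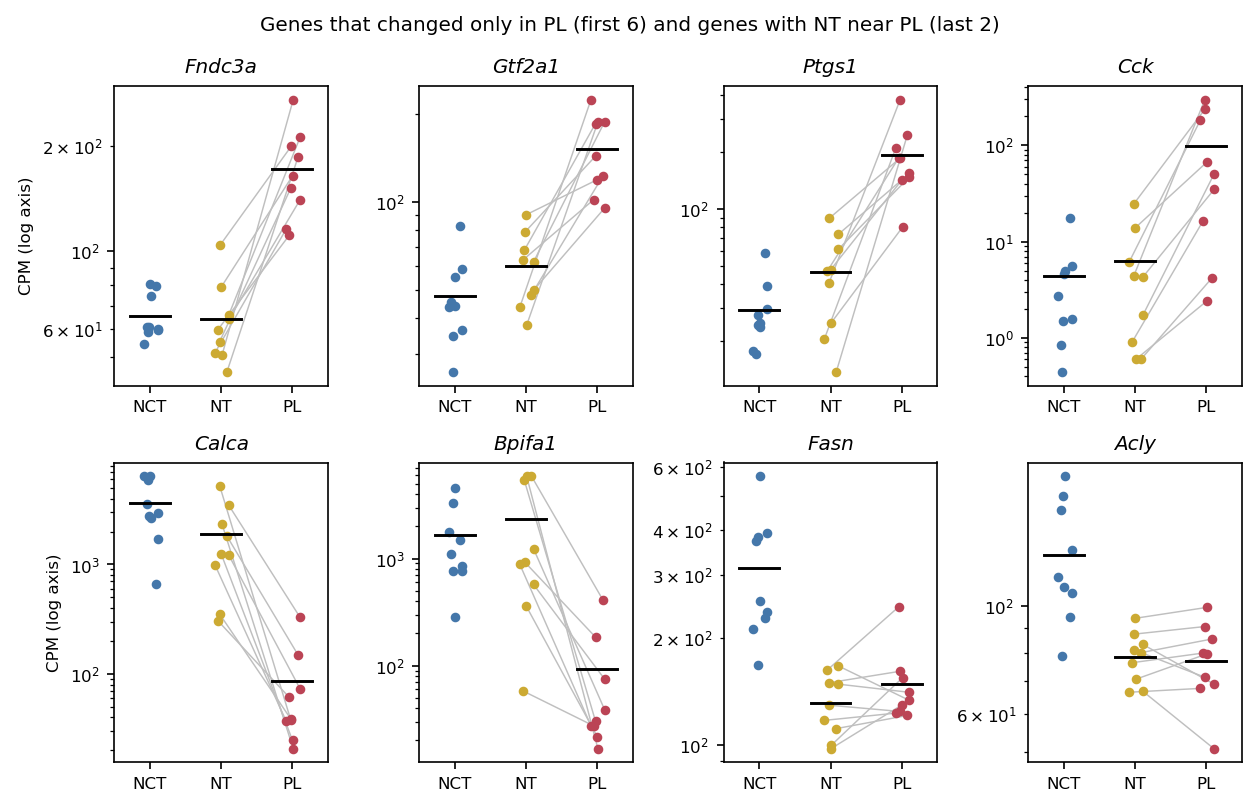
CPM on log axes in each library for 6 genes that by the rule changed only in PL (Fndc3a, Gtf2a1, Ptgs1, Cck, Calca, Bpifa1) and 2 genes of lipid synthesis with NT near the PL level (Fasn, Acly), drawn as in the plot of midway genes. For Fasn every NT library lies below every NCT library, and 3 NT libraries stand above 5000 CPM for Bpifa1.

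Another class held genes that differed from NCT to a like extent in NT and PL. By the rule that both differences from NCT were called and NT lay within 0.25 of the distance from PL, it had 3 genes (0.0197%): Fasn, Agpat2 and the gene model Gm6863. Its size was 48 by the DESeq2 Wald test, 12 with the mouse number series as a covariate, 10 without NCT replicate 7 and 1 to 5 without any other mouse. It was 0 in females alone, in the 1 number series with 4 mice of each kind and without the libraries rich in Pth or Lipf. It was also 0 with the adipocyte score, the C cell score or log2 library size as a covariate. Fasn, the fatty acid synthase, had a lowest, median and highest value of 168, 253 and 567 CPM in NCT mice, 97.6, 129 and 167 in NT, and 121, 133 and 244 in PL. NT and PL shared 1 range, and NT lay wholly below NCT, with a log2 difference of -1.249 (SE 0.19, adjusted p = 0.0023). Agpat2, which adds the next acyl chain in phospholipid and triglyceride synthesis, had 60.9 ± 31.5 CPM in NCT mice, 22.8 ± 7.38 in NT and 23.1 ± 11.1 in PL (adjusted p = 0.037 for NT against NCT). Gm6863 was higher in both, with 11.2 CPM in NCT mice, 19.7 in NT and 18.2 in PL.

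Related pathways had ordered genes with NT near PL. In fatty acid and glycerolipid synthesis 4 of 18 tested genes were ordered falls (22.2%, beside 4.30% of all genes) and 0 were rises. All 4 falls (Scd1, Acly, Lpin1, Mlxipl) had a place above 0.75. Scd1, the stearoyl-CoA desaturase, had 1553 ± 1339 CPM in NCT mice, 524 ± 160 in NT and 368 ± 252 in PL (slope -1.04, SE 0.19, adjusted p = 0.000552). Acly, which makes cytosolic acetyl-CoA, had 127 ± 35.9, 78.5 ± 9.45 and 77.1 ± 14.3 CPM, with NT at 0.965. Lpin1, a phosphatidate phosphatase, had NT at 0.948. The call of Mlxipl, a glucose-responsive regulator of lipogenesis, was kept in 10 of 18 fits with 1 mouse left out.

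Of the 13 mitochondrial genome genes, 5 were ordered falls (38.5%, beside 4.30% of all genes), each with a place above 0.75. All 13 had a negative slope, while 7859 of 15233 tested genes had a positive one. mt-Nd2, a subunit of complex I, had 10118 ± 2946 CPM in NCT mice, 6309 ± 1559 in NT and 5803 ± 1040 in PL (slope -0.40, SE 0.08, adjusted p = 0.00157). mt-Cytb, of complex III, had a place of 0.996. Of 32 nuclear respiratory genes 3 were ordered falls (9.4%), among them Cox7a1, a cytochrome oxidase subunit of muscle and brown fat (87.8, 27.2 and 23.4 CPM). In fatty acid oxidation 5 of 18 fell (27.8%) and 0 rose. Hadh had NT at 0.970, and Acaa2 fell more evenly, from 222 through 157 to 120 CPM, with NT at 0.556.

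Adipocyte markers moved with these genes. Of 16 tested, 5 were ordered falls (31.2%, beside 4.30% of all genes), 4 of them with a place above 0.75. The summed level of the 16 ran from 875 to 7009 CPM in NCT, 456 to 1519 in NT and 161 to 2024 in PL. Of the 16, 0 were at 0 in every library of a group. Lpl, lipoprotein lipase, had means of 429, 213 and 200 CPM. Ucp1, which uncouples respiration in brown fat, had 212, 29.2 and 32.3 CPM, Fabp4 had 914, 222 and 229, and Adipoq (adiponectin) had 87.3, 36.3 and 28.7. The trend of Adipoq was kept in 8 of 18 fits with 1 mouse left out, and those of Ucp1 and Fabp4 were lost without NCT replicate 9. With the adipocyte score as a covariate, 240 genes were ordered, 160 were midway and 79 changed only in PL. In that fit the slopes were -0.25 for Fasn (adjusted p = 0.443), -0.31 for Acly (0.142), -0.43 for Scd1 (0.0809) and -0.22 for mt-Nd2 (0.346). The score stood at 5.59 ± 0.86 in NCT, 4.10 ± 0.78 in NT and 3.41 ± 1.56 in PL, while 40.8% of its variance went with the order code. The share of these genes' change that goes with fat cannot be told apart from the group difference.

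No gene had NT outside the range of the other groups past the adjusted threshold in edgeR (0 genes, 0%), against 44 by the DESeq2 Wald test, 7 in the random-block fit and 36 with the adipocyte score as a covariate. At an unadjusted p under 0.05 for the departure from the midpoint, NT lay above both groups in 643 genes and below both in 599. Agrn, the heparan sulfate proteoglycan agrin, had 72.7 ± 13.7, 109.5 ± 22.7 and 72.4 ± 18.3 CPM (departure 0.60 log2, SE 0.12, adjusted p = 0.116, and 0.0267 in the random-block fit). Col6a2, a collagen VI chain, had 53.1, 67.7 and 30.5 CPM, with an adjusted p of 0.0267 in the random-block fit, and Sfn, the 14-3-3 sigma protein, had 28.2, 51.9 and 23.4 CPM. These 3 genes were chosen after their values were seen, and so was B330016D10Rik, a gene called lower in NT than in NCT, at 6.10, 1.303 and 2.49 CPM.

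Well known genes of the field also had NT at an extreme without passing the test for it. Lgals3, galectin 3, had a median of 114 CPM in NCT mice, 228 in NT and 118 in PL (departure 0.96 log2, SE 0.27, adjusted p = 0.24). Cdkn1a, the p53 target that stops the cell cycle, had means of 151, 188 and 131 CPM (adjusted p = 0.24 for the departure). Pax8, a transcription factor of the follicular lineage, was lowest in NT, with 138 ± 23.2, 105 ± 10.8 and 168 ± 69.2 CPM, and Nkx2-1 had 76.0, 67.4 and 105 CPM. Runx1 had 16.9 ± 5.27 CPM in NCT mice, 34.1 ± 7.40 in NT and 29.7 ± 11.3 in PL. Its trend was called (slope 0.40, adjusted p = 0.0398) with NT beyond PL, so it was not ordered, its call was kept in 8 of 18 fits with 1 mouse left out, and the adjusted p in the random-block fit was 0.0928.

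**Figure D5:**
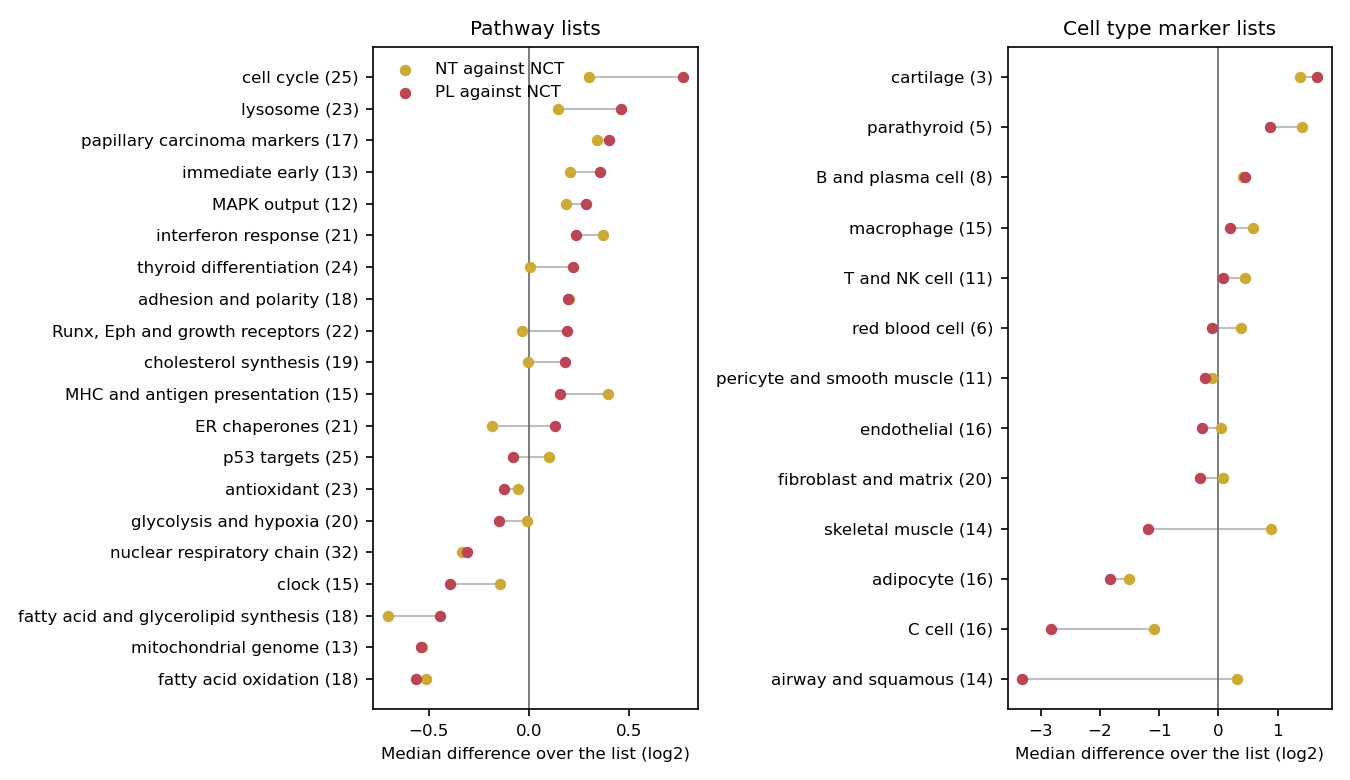
Median log2 difference over the tested genes of each list (number in brackets) for NT against NCT and PL against NCT; both differences share the NCT libraries. Cell cycle medians stand at 0.299 and 0.771, fatty acid synthesis medians at -0.704 and -0.444, and airway and squamous medians at 0.306 and -3.309.

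The other lists differed in where NT stood. Cell cycle genes had a positive slope in 25 of 25 tested, against 7859 of 15233 over all tested genes. Their median slope was 0.38, and 4 were ordered rises (16.0%, beside 5.93% of all genes). Mcm2, a replication helicase subunit, rose at the second step, with 10.9 ± 3.09, 12.9 ± 2.52 and 22.2 ± 6.27 CPM (adjusted p = 0.00068 for the slope, and 0.0709 for PL against NT with the mouse as a fixed block). Tpx2, a spindle protein, had NT at 0.540 (slope 0.78, adjusted p = 0.00755), Top2a at 0.581 and Mki67 at 0.665. For Mki67 the means were 10.9, 17.9 and 23.0 CPM, the adjusted p was 0.0338, and it was 0.0512 in the random-block fit. For Top2a and Mki67, 12 and 11 of 18 fits with 1 mouse left out kept the call.

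Lysosomal genes rose in 7 of 23 tested (30.4%, beside 5.93% of all genes) and fell in 0, with a median slope of 0.23. Ctsb, a cathepsin that digests thyroglobulin, had a lowest, median and highest value of 478, 569 and 889 CPM in NCT mice, 406, 817 and 1398 in NT and 1122, 1917 and 3590 in PL. PL did not overlap NCT and was above NT in 9 of 9 mice (slope 0.81, SE 0.11, adjusted p = 1.58e-05), and NT stood at 0.266. Gaa, the acid glucosidase, had NT at 0.435, and Lamp2, a lysosomal membrane protein, at 0.312. Npc2, the luminal cholesterol carrier, had 589, 698 and 1990 CPM and NT at 0.139, so it changed only in PL.

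In the endoplasmic reticulum 5 of 21 chaperone genes (23.8%, beside 5.93% of all genes) rose and 0 fell, with a median slope of 0.07. P4hb and Calr (calreticulin) were midway with slopes of 0.32 each, and Sel1l, of the degradation complex, was midway with a slope of 0.21. Pdia6 had NT at 0.035 and changed only in PL. Of 23 antioxidant genes 3 rose (13%) and 2 fell (8.7%, beside 4.30% of all genes). Sod3, the extracellular superoxide dismutase, went from 72.4 ± 31.9 through 114 ± 67.2 to 331 ± 157 CPM (slope 1.10, SE 0.18, adjusted p = 0.00034), and Prdx1 had a slope of 0.36 with NT at 0.371. Prdx4 rose and Prdx6 fell only in PL.

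Of 17 papillary carcinoma markers 7 rose (41.2%) and 2 fell (11.8%), beside 5.93% and 4.30% of all genes. Ccnd1 (cyclin D1) had NT at 0.679 and 136, 211 and 259 CPM. Fn1 (fibronectin) had NT at 0.188 and an adjusted p of 0.00793, which was 0.0715 in the random-block fit. Timp1, a metalloproteinase inhibitor, had NT at 0.765, kept its call in 7 of 18 fits with 1 mouse left out and had an adjusted p of 0.14 in the random-block fit. Met, the receptor of hepatocyte growth factor, fell (slope -0.38, adjusted p = 0.0421) and kept its call in 9 of 18. Of 12 MAPK output genes 3 rose (25%) and 0 fell; Phlda1 changed only in PL (168, 171 and 264 CPM). Of 22 Runx, Eph and growth receptor genes 1 rose in order (4.5%) and 2 fell (9.1%). Efnb2 and Igf1r rose only in PL, by 0.63 and 0.46 log2 over NT, and the calls were kept in 13 and 11 of 18 fits with 1 mouse left out. With the mouse as a fixed block the adjusted p for Igf1r was 0.0798.

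Of 15 antigen presentation genes 3 rose (20%, beside 5.93% of all genes), all midway. Among them were Tapbp (136, 190 and 245 CPM, NT at 0.567) and B2m (adjusted p = 0.0339, 0.0517 in the random-block fit, kept in 10 of 18 fits with 1 mouse left out). Of 21 interferon response genes 0 were ordered in either direction in edgeR. Of 25 p53 targets 0 rose and 1 fell (4.0%, beside 4.30% of all genes). The fall was Phlda3 (slope -0.30, adjusted p = 0.0366), and its call was kept in 9 of 18 fits with 1 mouse left out. Plk2, a polo-like kinase, fell only in PL, kept in 12 of 18 such fits, with an adjusted p of 0.061 under the fixed mouse block. Among 15 clock genes 1 rose, Per2 (12.5, 16.9 and 33.0 CPM, adjusted p = 0.0118), and 1 fell (6.7% each, beside 5.93% and 4.30% of all genes). Of 13 immediate early genes 1 rose (7.7%, beside 5.93% of all genes). It was Atf3, with NT at 0.820 and an adjusted p of 0.0715 in the random-block fit.

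Glycolysis and hypoxia genes rose in 2 of 20 (10%) and fell in 3 (15.0%), beside 5.93% and 4.30% of all genes. Ndrg1 rose only in PL in the unblocked fit (89.6, 102 and 213 CPM), and its adjusted p for PL against NT was 0.0741 with the mouse as a fixed block. Adhesion and polarity genes rose in 2 of 18, Muc4 and Epcam, both at the second step; Epcam, an epithelial adhesion molecule, had 259, 278 and 350 CPM and an adjusted p of 0.0581 for that step with the mouse as a fixed block. Cholesterol synthesis had 1 rise and 1 fall among 19 (5.3% each), near the shares over all genes.

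Fibroblast and matrix markers fell in 2 of 20 (10%, beside 4.30% of all genes), Dcn (decorin, kept in 8 of 18 fits with 1 mouse left out) and Pdgfra. Pdgfra changed only in PL in the unblocked fit (23.2, 21.6 and 10.1 CPM), and its adjusted p for PL against NT was 0.173 with the mouse as a fixed block. Their summed level ran from 3329 to 4904 CPM in NCT, 2869 to 5774 in NT and 1537 to 5635 in PL. Of 16 endothelial markers 1 (6.2%) fell, Tek, whose call was lost without NCT replicate 3, and of 11 pericyte and smooth muscle markers 2 (18.2%) fell, among them Myl9 (41.7, 37.2 and 17.04 CPM). No macrophage (15 tested), T and NK cell (11), B and plasma cell (8), red blood cell (6), skeletal muscle (14) or parathyroid (5) marker was ordered in edgeR, and Cd163 of the macrophage list fell only in PL, a call kept in 4 of 18 fits with 1 mouse left out. Of 3 tested cartilage markers 1 rose.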

How the data were processed

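Gene counts per library, as deposited by the authors, were used for all 27 libraries. Per the submitters' processing notes the reads were handled with STAR, featureCounts and DESeq2 on GRCm38, and neither the notes nor the labels give versions, strand setting or annotation. Gene names came from GENCODE M21, which matched 54495 of 54532 rows; the other 37 held 0.0043% of counts and kept their identifiers.

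Genes passed edgeR's filterByExpr (minimum count 10), leaving 15233. TMM factors and quasi-likelihood fits (edgeR 4.0.16, R 4.3.3, robust) gave a slope on the code 0, 1, 2 and, from a fit with 3 group means, the contrasts NT against NCT, PL against NT, PL against NCT and NT against the midpoint, with Benjamini-Hochberg adjustment at 0.05. Standard errors are the log2 value divided by the root of F and are approximate. Marker scores are mean log2 CPM with a prior count of 2. All tests were two-sided. On data simulated from these 27 libraries (14971 genes) the trend test recovered 100% of genes changed 2-fold a step and 74% of those changed 1.41-fold a step, and called 0.0271% of unchanged genes. The simulated libraries were independent, with no shared mice and no libraries rich in other tissue. The changed genes were drawn above a minimum level. These rates therefore do not measure error in the real libraries, where those features are present.

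NT and PL of the same mouse are paired by the labels. Their deviations from the group means correlated from -0.00646 to 0.233 (mean 0.134, above 0.1 in 6 of 9 pairs). The main fit has no mouse term. Blocked fits used limma 3.58.1 (voom, mouse as a random block) and edgeR with the mouse as a fixed block for PL against NT. Other alternatives were DESeq2 1.42.0, other factors and filters, covariates, subsets, and leaving out each NCT mouse or each exposed mouse. The exclusion of the libraries rich in Bpifa1 and the C cell covariate were chosen after seeing the data.

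The comparison, its gene lists and its naming rule were chosen with earlier results of these data known. By that rule the genes named were protein-coding with a mean of at least 10 CPM: the 8 rises and 8 falls of smallest p, the 6 and 6 largest midway, the 6 and 6 largest changed only in PL, up to 5 each way alike or outside, up to 4 per list by p, and a set of genes of interest. Scg5, Calcb, Duoxa2, Hhex, Pde8b, Mlxipl, Met, Atf3, Timp1, Cited1, Sel1l, Dio2, Cep128, H6pd, Fndc3a, Nkx2-2, Oxr1, Ank, Mesd, Agrn, Col6a2, Sfn, Gm6863 and B330016D10Rik were added after their values were seen. The last 2 are outside the rule by their names. Cited1, Pde8b, Mlxipl, Atf3, Cep128, Calcb and B330016D10Rik are outside it by their level, a mean below 10 CPM. Some genes that the rule names are not reported here.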

Additional observations from a re-analysis of the deposited data

Results flagged for a closer look

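In 28 of 366 groups of 9 libraries examined for the genes named, 1 library stood apart: its gap to the next library, divided by the range of the group on log2(CPM + 1), exceeded the 95% critical value of Dixon's test. Chance alone flags about 1 group in 20. NCT replicate 9 stood high for Scd1 (0.765, 5102 CPM against 1377 in the next library), Dmbt1 (0.699), Reg3g (0.652), Scgb3a1 (0.619), Ltf (0.614) and Agpat2 (0.525). It was also among the libraries rich in Pth or Lipf. NT replicate 9 stood low for Slc5a5 (0.687, 3.21 CPM against 54.6) and Hs3st3a1 (0.542).

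NT replicate 6 stood high for Sprr1a (0.566), Top2a (0.536, 94.5 CPM against 42.7) and Mki67 (0.514, 50.5 CPM against 19.9), and low for Hadh (0.558). NCT replicate 7 stood high for Elobl (0.588), Fgg (0.535) and Hs3st3a1 (0.494) and low for Cited1 (0.627). NCT replicate 4 stood high for Gaa (0.506) and Calr (0.494), NCT replicate 6 for Agrn (0.549), and NCT replicate 5 stood low for Phlda1 (0.632).

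Among the lesions, PL replicate 5 stood high for Phlda3 (0.596) and Fasn (0.593), PL replicate 4 for Resp18 (0.677), PL replicate 7 for Sftpd (0.559, 296 CPM against 31.9) and PL replicate 8 for Lamp2 (0.508). PL replicate 3 stood low for Pde1a (0.527) and PL replicate 1 for Mcm2 (0.515). In NT, replicate 7 stood low for Atf3 (0.578).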

How the results depend on the processing

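The counts of ordered, midway and PL-only genes, 1559, 1002 and 435, were within 1.5 times under the other normalization factors (1520, 972 and 420 with DESeq2 size factors) and under the DESeq2 Wald test (1838, 1154 and 547). Under the replicate block, with the mouse as a random effect in limma-voom, they were 1530, 933 and 517. With log2 library size as a covariate they were 1233, 771 and 351. They fell to 240, 160 and 79 with the adipocyte score as a covariate, 614, 387 and 51 in females alone, and 155, 109 and 21 in the 1 number series with 4 mice of each kind; the last 2 use fewer samples. With the C cell score as a covariate they were 0, 0 and 0 in edgeR, with 972 genes at an unadjusted p under 0.05. PL-only genes numbered 152 without the libraries rich in Pth or Lipf, 110 without those rich in Bpifa1, and 249 with the mouse as a fixed block. Leaving out 1 NCT mouse or 1 exposed mouse gave 188 to 530 PL-only and 1229 to 1629 ordered genes. A 2-fold minimum kept 678 ordered genes, and 648 genes with NT midway had a place from 0.333 to 0.667.

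Of 86 named genes called by slope, 65 stayed called in each fit with a mouse left out, 14 were not called with the random block, 24 without the libraries rich in Pth or Lipf, 37 in females alone, 56 with the adipocyte score, 70 in the 1 number series with 4 mice of each kind and 86 with the C cell score. Of 25 called by PL against NT, 19 stayed called in each, and 12 were not called without the libraries rich in Bpifa1. Of these 25, 8 were not called with the random block, 4 with the adipocyte score and 15 in females alone. In the 1 number series with 4 mice of each kind 20 were not called, and with the C cell score 25. Quality weights in limma-voom lost 10 of the 86 and 12 of the 25. Log2 library size as a covariate lost 18 of the 86 and 2 of the 25. Of 4391 single values under alternatives, 3752 kept direction and side of the threshold, 619 lost the call, 10 gained it and 10 reversed. The Slc5a5 slope, with an adjusted p of 0.613, turned to -0.0026495 with quality weights, -0.38588 with the adipocyte score, -0.14327 in females, -0.30456 with the C cell score, and -0.063585 without exposed mouse 9; leaving out 1 mouse gave up to 0.28975. With the adipocyte score Adipoq turned to 0.072797 and Dio2 to 0.038562. With the C cell score Glis3 turned to -0.015114, Timp1 to -0.019579 and Calcb to -0.011826. The causes of these changes were not tested.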

Other observations

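Among 13109 tested protein-coding genes in chromosome order, 1 run of 4 neighbouring ordered rises lay at chr12:91384563-91849157 on GRCm38: Tshr, Gtf2a1, Ston2 and Sel1l. Their mean levels over NCT, NT and PL were 67.9, 84.8 and 204 CPM for Tshr, 47.4, 60.1 and 152 for Gtf2a1, 14.2, 22.7 and 49.6 for Ston2, and 212, 230 and 284 for Sel1l. PL exceeded NT in 9 of 9 mice for the first 3 genes and in 8 for Sel1l. The neighbours before the run did not pass the threshold in edgeR: Dio2, the type 2 iodothyronine deiodinase, had 20.2, 15.7 and 12.9 CPM (adjusted p = 0.325) and Cep128, a centriole protein, had 6.64, 9.53 and 9.41 CPM (adjusted p = 0.237). The run was noticed after the values were seen and was not tested.

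Ordered rises of protein-coding genes stood alone in 613 runs of 1 gene, 58 runs of 2 and 3 runs of 3. The other runs were 1 of 5 at chr3:92285417-92485895, made of small proline-rich (Sprr) genes and 1 gene model among them, and 2 runs of 13 and 23 genes in the multicopy segment of chromosome 14 described above. Ordered falls stood in 559 runs of 1 gene, 27 of 2 and 3 of 3.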
